A study of Mus musculus with 6 samples.

Results

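Cdkn1a and 8 other genes of the p53 pathway were examined in 3 brain regions of mice given PAMAM dendrimers. The 9 genes were Cdkn1a, Trp53, Mdm2, Ccng1, Phlda3, Bax, Gadd45a, Bbc3 and Pmaip1, of 35019 gene symbols on the array, and they were found by name among its probes. They carry 11 of the 55681 probes, with 3 probes for Cdkn1a and 1 for each of the others. The set was chosen by the measured differences between PAMAM and saline, because Cdkn1a was higher with PAMAM in hippocampus and cortex while other p53 targets were not. Those differences are therefore a description of 6 arrays and carry no test. Levels across the brain regions played no part in that choice and were tested. The spread in those tests comes from the same differences between PAMAM and saline, so their p-values are not independent of the choice.

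PAMAM (polyamidoamine) dendrimers are branched synthetic polymers studied as carriers for drugs and nucleic acids. Male BALB/c mice aged 8 weeks received 1 intranasal dose of PAMAM at 0.15 mg/kg, or saline as the control, and tissue was taken 24 h later. Each of the 6 arrays carried RNA of 1 region, the olfactory bulb, the hippocampus or the cerebral cortex, from 1 treatment, pooled from 6 independent experiments. Every combination of region and treatment thus had 1 array and no replicate. All animals were of the same strain, sex and age, and the labels name no genetic change.

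p53 is a transcription factor that cells hold at a low level through Mdm2, a ubiquitin ligase that marks it for degradation and is itself a p53 target. After DNA damage and other stresses p53 accumulates and induces genes that stop the cell cycle, repair DNA or start apoptosis. Cdkn1a encodes p21, an inhibitor of cyclin-dependent kinases and the best known of these targets. Its transcription also answers to signals that do not pass through p53, among them TGF-beta family ligands and glucocorticoids. Most neurons of the adult brain have left the cell cycle.

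The promoter of Cdkn1a is shown because it holds matches to the sequence that p53 binds. RefSeq (build GRCm38.p6) gives Cdkn1a 2 starts on chromosome 17. The 250 bases before the upstream one, chr17:29090729-29090978 on the + strand, hold 2 matches to the 10-base p53 half-site consensus, in capitals. They begin 73 and 51 bases before the start and lie 12 bases apart. Capitals mark exact matches only. The 10 bases directly after the second match depart from the consensus at their first base and stay in lower case. Which of these sites p53 binds was not tested.
Cdkn1a: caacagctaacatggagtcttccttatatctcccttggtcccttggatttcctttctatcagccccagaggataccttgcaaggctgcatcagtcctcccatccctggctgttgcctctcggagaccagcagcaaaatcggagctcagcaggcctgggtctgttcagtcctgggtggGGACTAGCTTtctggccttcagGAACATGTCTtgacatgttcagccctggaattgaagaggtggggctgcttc

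Single half-sites, again in capitals, occurred in the same window of 5 other genes of the set. The sequences are shown with 10 flanking bases on each side. They run 5′ to 3′ on the strand of the gene.
Trp53, chr11:69580274-69580303, + strand: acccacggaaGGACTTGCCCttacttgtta
Mdm2, chr10:117710925-117710954, - strand: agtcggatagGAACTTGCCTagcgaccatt
Ccng1, chr11:40755452-40755481, - strand: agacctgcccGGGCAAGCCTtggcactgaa
Bax, chr7:45467080-45467109, - strand: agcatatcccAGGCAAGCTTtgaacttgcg
Gadd45a, chr6:67037428-67037457, - strand: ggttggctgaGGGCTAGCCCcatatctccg

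A half-site was thus present in 6 of 11 windows (54.5%), those of 6 of the 8 genes looked up (Pmaip1 was not), against 7.13% of 32851 RefSeq windows of the same length. A pair of half-sites at most 13 bases apart stood in 1 of the 11, the upstream Cdkn1a window, and in 21 of all windows (0.0639%). Neither Phlda3 nor Bbc3 had a match in its windows, nor did the second Cdkn1a start. The GC box GGGCGG, searched on both strands, occurred in 72.7% of the 11 windows and in 32.7% of all. The median GC content was 64.8% for the 11 windows and 52.4% for all. Because the genes were picked as members of the p53 pathway, nothing about these arrays is read from the shares. Matches of letters do not show binding, and sites with a mismatch to the consensus were not counted.

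Cdkn1a was read by 3 probes. The one that was bright on every array matches NM_007669 at mm9 chr17:29237377-29237436 and is spotted 10 times, so that each array measured it 10 times over. Its first 30 bases, and the last 30 of the second probe, which was designed on ENSMUST00000122348 at chr17:29235299-29235358, are shown to tell the targets apart. Capitals in the second mark the ATG of the p21 coding sequence.
Cdkn1a, bright probe: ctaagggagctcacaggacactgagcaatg
Cdkn1a, second probe: tcttgtgtttcagccacaggcaccATGtcc

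Cdkn1a was higher with PAMAM in all 3 regions, by 3.0-fold in cortex, 2.49-fold in hippocampus and 1.15-fold in the olfactory bulb. Levels are given as multiples of the 75th percentile of the array's own signal, which sets arrays on a common scale. In the olfactory bulb the 10 spots read 3.38 to 3.55 with PAMAM (median 3.42), against 2.9 to 3.05 with saline (median 2.98). In hippocampus they read 0.961 to 1.15 with PAMAM (median 1.04), against 0.387 to 0.454 with saline (median 0.41). In cortex they read 2.06 to 2.24 with PAMAM (median 2.15), against 0.684 to 0.741 with saline (median 0.717). The spots of the PAMAM and the saline array did not overlap in any region. For how many other repeated probes this holds was not counted, so nothing is read from it. Repeated spots show the error of the array alone, not that between animals or between labellings.

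On the log2 scale the differences, PAMAM minus saline, were 0.20 in the olfactory bulb, 1.31 in hippocampus and 1.59 in cortex. Their standard errors from the repeated spots were 0.01, 0.033 and 0.017. Such a spot standard error is that of the difference between 2 array means. It falls with the number of spots, which was 10 for this probe and 1 or 2 for the other probes of the set. Of 23292 genes measured in the olfactory bulb, meaning well above background on both arrays, 2140 had a larger positive difference than Cdkn1a. In hippocampus 64 of 22329 genes had one, and in cortex 13 of 21601. Among probes spotted 10 times, Cdkn1a had the highest difference both in hippocampus (of 289 measured) and in cortex (of 286). Over these repeated probes the median size of the difference, whatever its sign, was 0.079 in the olfactory bulb, 0.083 in hippocampus and 0.125 in cortex. The 2 hippocampal arrays lay in different rows of the slide, so row and treatment cannot be told apart there, whereas the pair of the cortex and the pair of the olfactory bulb each shared a row.

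**Figure D1:**
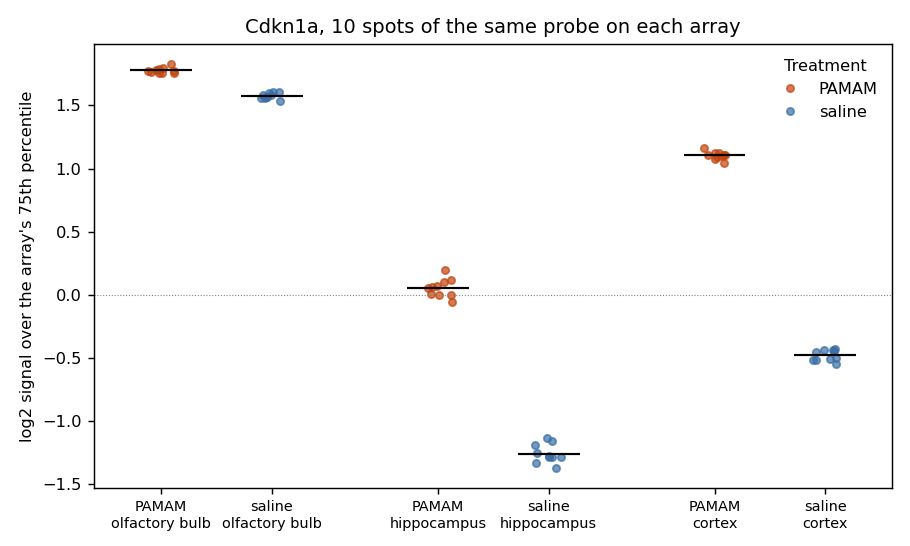
Level of Cdkn1a on the 6 arrays, as log2 of the signal over the array's 75th percentile. Points are the 10 spots of the bright probe, lines their means. PAMAM spots lie above saline spots in every region, by 0.20 in the olfactory bulb, 1.31 in hippocampus and 1.59 in cortex.

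The other Cdkn1a probes, each designed on another transcript, did not repeat this reading. Whether they read the same RNA as the bright probe was not tested. The second probe was well above background only in the olfactory bulb, with log2 levels of -4.97 with PAMAM and -4.04 with saline. Its difference of -0.93, with a spot standard error of 0.41, runs against that of the bright probe and shrank to -0.36 after normexp background correction. The third, designed on NM_001111099 at chr17:29227986-29228045, was not well above background on any array.

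At a 2-fold threshold Cdkn1a was the single gene of the 9 past it in hippocampus and in cortex, and none was past it in the olfactory bulb. Over all measured genes 0.582% were at least 2-fold higher with PAMAM in hippocampus, 0.352% in cortex and 0.0515% in the olfactory bulb, and 0.0672%, 0.417% and 0.206% were at least 2-fold lower. Because this contrast chose the genes, nothing is read from these shares. The values nearest the threshold were 1.31 for Cdkn1a in hippocampus, inside it, and -0.93 for its second probe in the olfactory bulb, outside it.

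The p53 gene itself and its inhibitor Mdm2 differed far less between the arrays of a region. Trp53 gave a weak signal, with log2 levels of -3.62 with PAMAM and -3.67 with saline in the olfactory bulb, -3.20 and -3.56 in hippocampus, and -3.32 and -3.66 in cortex. Its differences of 0.05, 0.36 and 0.34 had spot standard errors of 0.195, 0.171 and 0.221. Trp53 was read higher with PAMAM in hippocampus by slightly more than 2 such errors, and by fewer in the other regions. Mdm2 read 3.54 with PAMAM and 3.50 with saline in the olfactory bulb, 3.73 and 3.57 in hippocampus, and 3.76 and 3.67 in cortex. Its differences were 0.04, 0.15 and 0.09, with spot standard errors of 0.06, 0.066 and 0.062. The hippocampal difference was thus beyond 2 of them. Over all genes measured in hippocampus, 33.8% had a larger difference in either direction than Mdm2, and 9.49% than Trp53. p53 is controlled largely through the stability of the protein, which arrays do not read.

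Gadd45a, a target that acts in growth arrest and DNA repair, had the next largest positive difference after Cdkn1a in hippocampus, and after Cdkn1a and Trp53 in cortex. Its log2 levels were -1.50 with PAMAM and -1.51 with saline in the olfactory bulb, -0.90 and -1.36 in hippocampus, and -0.14 and -0.46 in cortex. The differences of 0.46 in hippocampus and 0.32 in cortex were over 2 spot standard errors (0.126 and 0.104). That of 0.01 in the olfactory bulb was not. Cdkn1a, by contrast, was also higher in the olfactory bulb beyond its spot error, though 21.7% of genes measured there had a larger difference in either direction. In all, 886 of the genes measured in hippocampus and 1564 of those in cortex had a larger positive difference than Gadd45a.

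Ccng1, the p53-induced cyclin G1, and Phlda3, a repressor of Akt signalling, read nearly alike with PAMAM and with saline. Ccng1 differed by 0.10 in the olfactory bulb, 0.06 in hippocampus and -0.09 in cortex. Phlda3 was lower with PAMAM in each region, with differences of -0.08, -0.15 and -0.12, and beyond 2 spot standard errors (0.069) in hippocampus. Of all genes measured there, 34.7% had a larger difference in either direction.

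The targets that start apoptosis were within 2-fold in every region where they were measured. Bax, which permeabilises the mitochondrial membrane, differed by -0.00 in the olfactory bulb, -0.06 in hippocampus and 0.18 in cortex. The last had a spot standard error of 0.069. In cortex 38.6% of all genes measured had a larger difference in either direction than Bax. Bbc3, which encodes the BH3-only protein PUMA, read 0.45 with PAMAM and 0.76 with saline in the olfactory bulb. That difference of -0.31 had a spot standard error of 0.078. Of all genes measured in the olfactory bulb, 10.5% had a larger difference in either direction than Bbc3. Bbc3 differed by -0.11 in hippocampus and -0.04 in cortex. Pmaip1, which encodes the BH3-only protein Noxa, was not well above background on either array of the olfactory bulb. Its differences were -0.27 in hippocampus and -0.20 in cortex, within 1 spot standard error (0.298 and 0.227). They were 0.09 and 0.04 after normexp correction.

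Over the 8 genes other than Cdkn1a, the median difference was 0.01 for the 7 measured in the olfactory bulb, 0.00 for the 8 in hippocampus and 0.02 for the 8 in cortex. The medians of all genes measured were -0.01, 0.00 and 0.02. Of the others 4 were above 0 in each region.

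**Figure D2:**
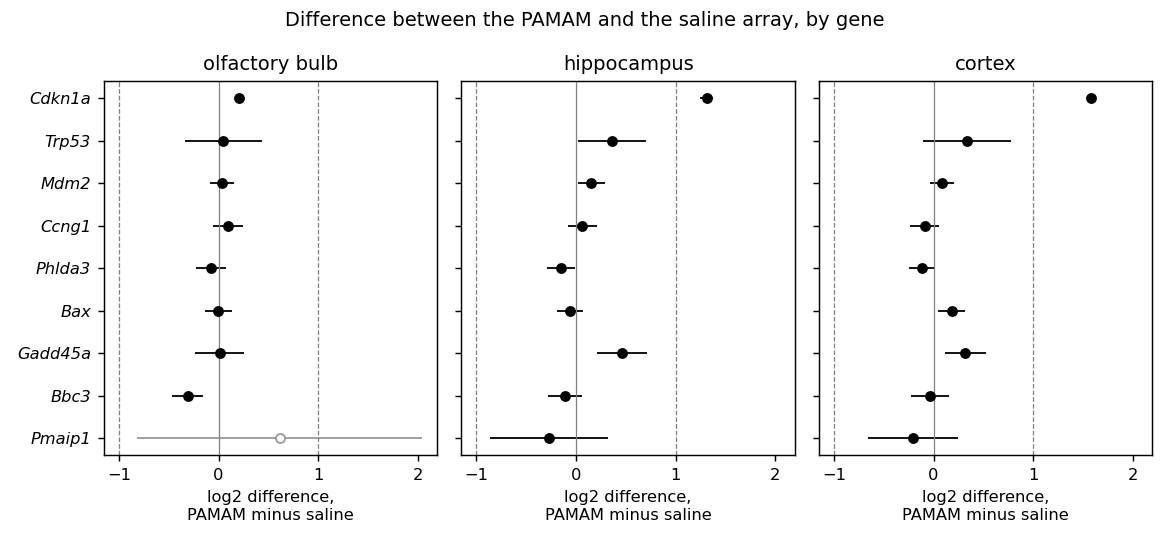
Log2 difference between the PAMAM and the saline array for the brightest probe of each gene, in 3 regions. Bars are 2 spot standard errors of the difference (from repeated spots of like brightness where a probe has few spots). Dashed lines mark 2-fold, and the open grey point is not well above background. Cdkn1a is past 2-fold in hippocampus and cortex, and the other genes lie between -0.31 and 0.46 where measured.

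The same question was put to 6 wider lists, which were assembled with earlier results of these arrays known. Of 50 other p53 targets, 42 were measured in the olfactory bulb, 42 in hippocampus and 40 in cortex, and of those measured 0 were 2-fold higher or lower in any region. Over all genes measured, 0.258% were past 2-fold in either direction in the olfactory bulb, 0.649% in hippocampus and 0.768% in cortex. The list's medians were -0.03, 0.00 and 0.02. Btg2, an antiproliferative immediate early gene, was the lowest of the list in the olfactory bulb and the cortex. Its log2 level was -0.43 with PAMAM and 0.38 with saline in the olfactory bulb (difference -0.81), and -0.34 and 0.25 in cortex (difference -0.59). In hippocampus it differed by -0.43, and Foxo3, a forkhead transcription factor, by -0.46. Gdf15, a stress-induced TGF-beta family ligand that was looked up after its values were seen, was well above background on the PAMAM array of the hippocampus but not on the saline array, at -3.87 with PAMAM and -4.88 with saline. These 2 readings were 2.01-fold apart. The saline one was not well above background and both were dim, so the size is uncertain. Gdf15 was well above background in no other region.

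The highest of the measured genes on this list differed between regions. Sfn, which encodes 14-3-3 sigma, differed by 0.37 in the olfactory bulb and by -0.19 in cortex. Perp, a p53-induced membrane protein, differed by 0.32 in hippocampus and 0.50 in cortex, against -0.04 in the olfactory bulb. Klf4, a transcription factor that also acts on Cdkn1a, differed by 0.30 in hippocampus, 0.45 in cortex and 0.13 in the olfactory bulb. In cortex Igfbp3, an IGF-binding protein, differed by 0.74 and Tnfrsf10b, a death receptor, by 0.53. None of these reached 2-fold.

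Genes that act on p53 were within 2-fold as well. Of 19 listed regulators, 17 were measured in the olfactory bulb, 17 in hippocampus and 16 in cortex, with 0 past 2-fold and medians of 0.06, -0.01 and 0.12. Atm, a kinase of the DNA damage response, differed by -0.19 in the olfactory bulb and its other measured probe by 0.14. There Chek1, which acts downstream of Atr, differed by 0.19. In hippocampus Rfwd2, a ubiquitin ligase for p53, differed by 0.18 and Atr by -0.11. In cortex Ppp1r13l, an inhibitor of p53, differed by 0.37 and Mdm4, the partner of Mdm2, by -0.25.

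The other inhibitors of cyclin-dependent kinases were set beside Cdkn1a. Of 7 on the list, 5 were measured in the olfactory bulb, 5 in hippocampus and 6 in cortex, and 0 were past 2-fold. Cdkn1c, which encodes p57, was the highest in hippocampus, at 1.10 with PAMAM and 0.54 with saline (difference 0.56), and differed by -0.03 in the olfactory bulb and -0.06 in cortex. Cdkn1b, which encodes p27, differed by -0.01, 0.06 and 0.23, and its other measured probe by 0.35, 0.19 and -0.41. Cdkn2c differed by 0.39 in the olfactory bulb, -0.46 in hippocampus and 0.19 in cortex. Cdkn2b differed by 0.27, 0.06 and 0.37, Cdkn2d by no more than 0.11 either way, and Cdkn3, measured in cortex alone, by -0.16. Cdkn2a was not well above background on any array.

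Cyclins drive the kinases that p21 inhibits. Of 26 cyclins, cyclin-dependent kinases and proliferation markers, 19 were measured in the olfactory bulb, 18 in hippocampus and 18 in cortex, with 0 past 2-fold and medians of -0.06, -0.05 and 0.03. Ccnb2, a mitotic cyclin, was the highest in each region, with differences of 0.37, 0.54 and 0.47. Mki67, the marker of cycling cells, differed by -0.19 in cortex.

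The BCL2 family, 12 genes measured in each region, had medians of -0.01, 0.02 and 0.06 and 0 past 2-fold. Hrk, a BH3-only gene of neurons, differed by 0.47 in cortex. Bcl2l1, which encodes the survival protein BCL-XL, differed by 0.39 there, but its other measured probe by -0.79.

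Of 20 glucocorticoid-responsive genes, all measured, 0 were past 2-fold, with medians of 0.07 in the olfactory bulb, 0.07 in hippocampus and 0.17 in cortex. Fkbp5, a co-chaperone of the glucocorticoid receptor and one of its targets, differed by 0.67 in cortex, at 2.22 with PAMAM and 1.55 with saline. Sgk1, another target of that receptor, differed by -0.14 in cortex. Dusp1, a phosphatase, differed by 0.39 in hippocampus.

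Markers of other tissues were higher with PAMAM on the same arrays as Cdkn1a. In hippocampus 20 of 20 choroid plexus markers were above 0 (median 0.71), with a summed level of 384 with PAMAM and 241 with saline. In cortex 12 of 13 measured were above 0 (median 0.78), 6 of them by 2-fold or more, with sums of 61.4 and 34.9 over all 20. Of the remaining 7 in cortex, 6 were well above background on the PAMAM array only and 1 on neither array. Meningeal and fibroblast markers were above 0 in 19 of 19 in cortex (median 0.74, sums 30.2 with PAMAM and 17.6 with saline) and in 7 of 19 in hippocampus (median -0.02).

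Red blood cell genes were above 0 in 8 of 8 in hippocampus (median 0.53, sums 214 with PAMAM and 157 with saline) and in 7 of 7 in cortex (median 0.63, sums 246 and 157). Hbb-b1 and Hbb-bt of this list were read by the same probe, at 0.55 in hippocampus and 0.82 in cortex. That probe enters the counts, medians and sums of the list under both names. Thalamus markers were above 0 in 8 of 10 in hippocampus (median 0.55) but in 3 of 11 in cortex (median -0.31, 2 of them at least 2-fold lower). In the olfactory bulb the medians of choroid plexus, meninges and red blood cells were -0.05, -0.07 and 0.07. Endothelial markers had medians of 0.07 in hippocampus and 0.14 in cortex, and microglial ones of 0.02 and 0.15. The part of these in the Cdkn1a difference was not tested. In pieces of tissue, a change in the number of cells of a type and a change in RNA per cell cannot be told apart.

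**Figure D3:**
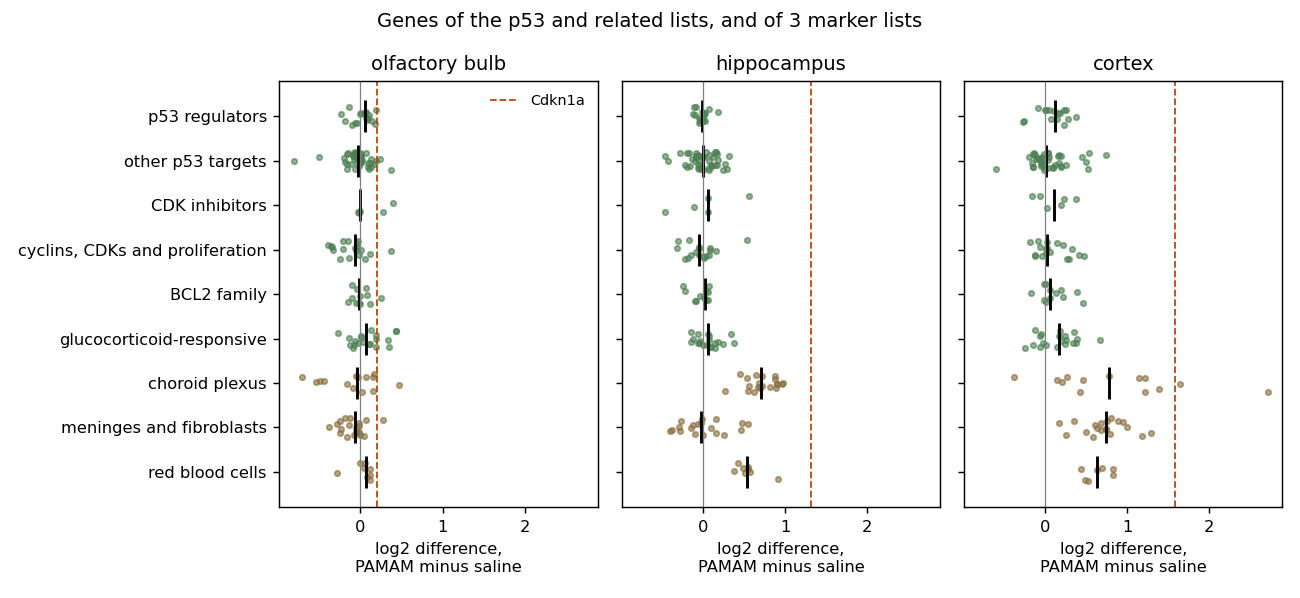
Log2 difference between the PAMAM and the saline array for the measured genes of 6 pathway lists (green) and 3 marker lists (brown), by region. Each point is a listed gene (Hbb-b1 and Hbb-bt share a probe), black bars are medians and the dashed line is Cdkn1a. All points of the pathway lists lie within 2-fold. In hippocampus and cortex the choroid plexus and red blood cell genes shown sit to the right of 0, except 1 choroid plexus gene in cortex.

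A difference like that of Cdkn1a in both regions was seen in few genes. Of 21306 genes measured in hippocampus and the cortex, 4 were at least 2-fold higher with PAMAM in both, among 130 in hippocampus and 76 in cortex. Besides Cdkn1a they were Inhba, Slc23a3 and a transcript that is named only by its position. Whether that position lies within a known gene was not tested. Inhba, which encodes the activin A subunit of the TGF-beta family, differed by 1.18 in hippocampus and 1.30 in cortex, and by 0.08 in the olfactory bulb. Slc23a3 differed by 2.40 and 1.82, and by -0.68 in the olfactory bulb. The transcript named by position differed by 1.06 and 1.03, and by 1.06 in the olfactory bulb, so that it was past 2-fold in all 3 regions.

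The genes whose levels over the 6 arrays lay closest to those of Cdkn1a were Inhba, Maml3, Epha2, H2-Eb1 and Cd74. Likeness was the root mean square difference of the 6 log2 levels after each gene was centred on its own mean, and these 5 were at 0.197, 0.276, 0.328, 0.373 and 0.376, against a median of 1.15 over 21092 genes. Maml3 is a coactivator of Notch, Epha2 an ephrin receptor, and H2-Eb1 and Cd74 belong to MHC class II antigen presentation. Cd74 differed by 1.73 in cortex, at -1.90 with PAMAM and -3.63 with saline, and by 0.39 in hippocampus. Epha2 differed by 0.52 in the olfactory bulb, 0.70 in hippocampus and 1.05 in cortex. The 7 p53 pathway genes that could be compared lay at 1.12 (Bbc3) to 1.51 (Phlda3). Bbc3, Mdm2, Trp53 and Bax were near the median of all genes, whereas Ccng1, Gadd45a (both 1.31) and Phlda3 were farther from Cdkn1a than most genes. The set was chosen on these arrays because other targets did not follow Cdkn1a, so nothing is read from these distances. The measure takes in levels across regions as well, so a gene can lie far from Cdkn1a by those alone.

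**Figure D4:**
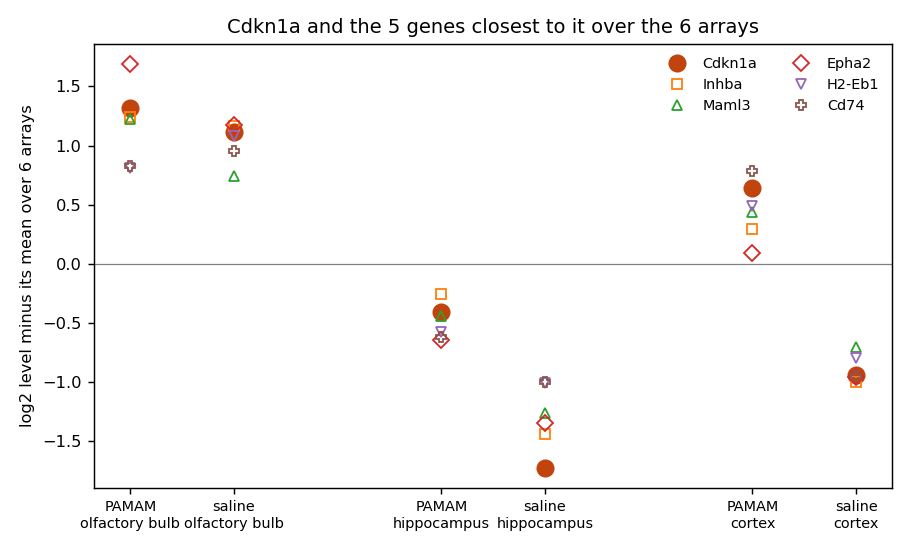
Log2 level, minus its mean over the 6 arrays, of Cdkn1a (filled) and of the 5 genes closest to it. All 6 genes are above their mean on both olfactory bulb arrays and the PAMAM array of the cortex, and below it on both hippocampus arrays and the saline array of the cortex.

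The levels of the 9 genes across regions were compared with limma on the 6 arrays, with treatment as an additive term and p-values adjusted over all 34482 probes tested. The PAMAM and the saline array of a region served as its 2 arrays, so the spread includes any difference of the treatment effect between regions. Genes chosen for small differences between PAMAM and saline thus tend to have a small spread, which lowers their p-values. Both olfactory bulb arrays lay in row 1 of the slide and both cortex arrays in row 2, so that these regions and the rows cannot be told apart except through the hippocampus, which had an array in each. Whether 1 mouse gave tissue to several regions is not stated. Markers of the regions stood where the labels put them: those of the olfactory bulb summed to 350 with PAMAM and 362 with saline in the olfactory bulb, and to no more than 160 in the other regions. Of the 11 probes 10 were bright enough to be tested.

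Cdkn1a was highest in the olfactory bulb, then in cortex, then in hippocampus, with either treatment. It was higher in the olfactory bulb than in hippocampus by 2.28 ± 0.278 log2 units (SE, 2 arrays each; limma, adjusted p = 4.4e-04). Against the cortex it was higher by 1.37 ± 0.278 (limma, adjusted p = 0.00532), a call that was lost with the slide row as a term (adjusted p = 0.0759), without the trend in the prior variance (0.058) and on the authors' deposited table (0.0533). The hippocampus minus cortex difference of -0.92 was not called (limma, adjusted p = 0.0728). Between olfactory bulb and cortex the difference was 0.67 on the PAMAM arrays and 2.06 on the saline arrays, and between olfactory bulb and hippocampus 1.72 and 2.83.

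Phlda3, Gadd45a, Ccng1 and Pmaip1 had their lowest mean level in the olfactory bulb and their highest in cortex, though not every step between regions was called. Phlda3 was lower in the olfactory bulb than in cortex, with a difference of -1.40 ± 0.063 (SE; limma, adjusted p = 3.16e-06), and than in hippocampus, with one of -0.72 (limma, adjusted p = 8.13e-05). It was lower in hippocampus than in cortex, with a difference of -0.68 (limma, adjusted p = 5.52e-04). Its levels were 1.67 with PAMAM and 1.75 with saline in the olfactory bulb, 2.35 and 2.50 in hippocampus, and 3.05 and 3.17 in cortex, so that no region overlapped another. All 3 calls of Phlda3 held under the alternatives run.

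Gadd45a was lower in the olfactory bulb than in cortex, with a difference of -1.21 ± 0.13 (SE; limma, adjusted p = 2.21e-04; 0.0619 with the slide row) and lower in hippocampus than in cortex, with one of -0.83 (limma, adjusted p = 0.00514; 0.0785 with the slide row). The call between hippocampus and cortex also ended without the trend, on the authors' deposited table and without the saline array of the hippocampus. Ccng1 was lower in the olfactory bulb than in cortex, with a difference of -0.66 ± 0.077 (SE; limma, adjusted p = 3.28e-04; 0.0642 with the slide row) and than in hippocampus, with one of -0.46 (limma, adjusted p = 0.00209).

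Pmaip1 was not well above background in the olfactory bulb, and was at least 3.06-fold higher in hippocampus and at least 5.15-fold higher in cortex than there. The bounds set each olfactory bulb array at the lowest signal that was well above background, or at the probe's own signal where that was higher. Limma called both differences (adjusted p = 9.01e-04 and 1.99e-04) from olfactory bulb readings at background, and the probe entered the test only through the regions where it was bright.

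Bbc3 ran the other way, and was higher in the olfactory bulb than in cortex by 0.66 ± 0.093 (SE; limma, adjusted p = 8.97e-04; 0.0653 with the slide row). It was also higher in hippocampus than in cortex, by 0.57 (limma, adjusted p = 0.00633), a call that ended with the slide row (0.0585), without the trend (0.0702), on the authors' deposited table (0.0664) and without either array of the hippocampus (0.0589 and 0.0761). Bax and Trp53 passed in no comparison of regions. Mdm2 passed once, at -0.19 for olfactory bulb minus cortex (limma, adjusted p = 0.0385), and that call ended under most alternatives and turned to 0.08 after quantile normalization.

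In all, 5 of the 10 probes tested were called between olfactory bulb and hippocampus, where 43.8% of all probes were. Of these, 2 were higher in the olfactory bulb (19.5% of all probes) and 3 lower (24.2%). Between olfactory bulb and cortex 8 of 10 were called (46.6% of all), 3 of them higher in the olfactory bulb (20.1%) and 5 lower (26.5%). Between hippocampus and cortex 3 of 10 were called (14.0% of all), 1 of them higher in hippocampus (6.2%) and 2 lower (7.85%). Over probes well above background on all 4 arrays compared, the calls were 3 of 8, 6 of 8 and 3 of 9. With the slide row as a term, 5, 2 and 1 of the 10 were called, and 5183 probes in place of 16072 between olfactory bulb and cortex. The full counts include Pmaip1 and the second Cdkn1a probe, which was above background in the olfactory bulb alone and entered the test through it. That probe was at least 1.23-fold higher there than in hippocampus, and no bound can be given against the cortex. Its calls (limma, adjusted p = 0.017 and 0.0464) ended after normexp correction (0.178 and 0.548), and the one against the hippocampus also without either olfactory bulb array (0.305 and 0.053) or the saline array of the hippocampus (0.0801).

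**Figure D5:**
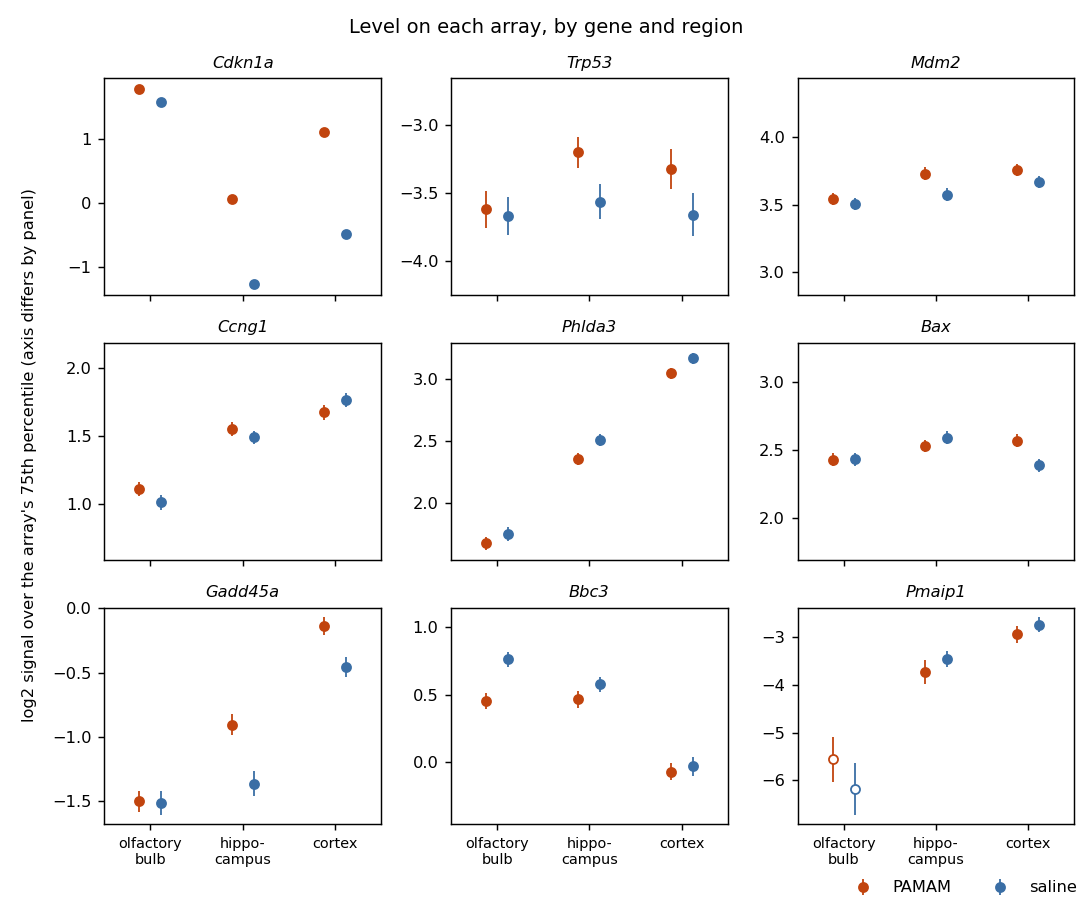
Level of the 9 genes on each array, as log2 of the signal over the array's 75th percentile, with the standard error from the spot noise. Filled points are well above background, open points are not, and each panel has its own axis. Cdkn1a is highest in the olfactory bulb, while Phlda3, Gadd45a, Ccng1 and Pmaip1 are lowest there.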

How the data were processed

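Per the file headers, the deposited files hold spot intensity of 1-colour Agilent arrays of design 028005 (scanner G2505C, software Feature Extraction 10.7.3.1), annotated on build mm9. A second file deposited by the authors holds log2 values of these arrays, of unstated scale and centring, and served as an alternative.

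Each array had 59305 non-control spots, of which 34134 to 39057 were well above background and 0 saturated. All 6 arrays lay on 1 slide. The background-subtracted signal was taken as log2 minus the array's 75th percentile, spots with an outlier flag were dropped, and the rest averaged per probe. Each gene was read by its brightest probe (mean of 6 arrays). Spot error came from repeated spots (for probes with few spots, from 40 repeated probes of like brightness). With 1 array per region and treatment, PAMAM and saline were compared without a test. Regions were compared with limma 3.58.1 (R 4.3.3), with Benjamini-Hochberg adjustment and a threshold of 0.05. A p-value measures the spread between these arrays only. Symbols were updated through RefSeq for 27235 probes, and 28446 kept the file's name. Named genes were the 9 members, the 5 genes most like Cdkn1a, all cyclin-dependent kinase inhibitors, and the 2 highest, the 2 lowest and any gene past 2-fold of each of 6 pathway lists, of which the text gives a part. 13 marker lists were also computed. The members and lists were chosen with earlier results of these data known. Slc23a3 and Gdf15 were named after their values were seen.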

Additional observations from a re-analysis of the deposited data

How the results depend on the processing

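The size of the Cdkn1a difference at its bright probe depended on the processing, but its direction and its side of the 2-fold threshold did not under the 5 alternatives run. Of 135 recomputed member differences 125 moved by less than the spot error and 10 by more. The 125 include the 27 with outlier spots kept, which did not change at all. Cdkn1a differed by 0.22 in the olfactory bulb after quantile normalization. With normexp background it differed by 1.13 in the hippocampus and 1.42 in the cortex. In the cortex it differed by 1.56 both after quantile normalization and with the percentile over probes above background on all arrays, and by 1.61 on the authors' deposited table. Of 126 recomputed list medians 124 moved by less than 0.1. Over all measured probes of a gene, the median of the cyclin-dependent kinase inhibitors was 0.17 in the olfactory bulb, against -0.01 as reported, and -0.019 in cortex, against 0.10.

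Counts of genes past 2-fold depended on dim probes. With normexp background, 6, 54 and 25 genes were higher and 22, 4 and 16 lower in the olfactory bulb, hippocampus and cortex. With brighter genes only, 5, 29 and 21 were higher and 17, 3 and 13 lower. As reported, 12, 130 and 76 were higher and 48, 15 and 90 lower. After quantile normalization the cortex held 97 higher and 65 lower, the reverse of its order as reported.

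Region calls were less stable. Between olfactory bulb and cortex, 16072 probes were called, and 5183 with the slide row as a block, 2 of them members. Between hippocampus and cortex, 4844 were called, and 1878 with the slide row as a block, 1727 without the trend and 1825 on the authors' deposited table, each with 1 member. Leaving out 1 array gave 9825 to 18160 called probes between olfactory bulb and hippocampus (4 to 6 members), 10387 to 16296 between olfactory bulb and cortex (6 to 7) and 1880 to 6035 between hippocampus and cortex (1 to 4). The array left out at the lowest count was the PAMAM array of the olfactory bulb in the first and second comparisons and the saline array of the hippocampus in the third. Without the saline array of the hippocampus 9938 probes were called in the first, and without its PAMAM array 2297 in the third.

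Small region differences changed sign in 10 of 360 recomputed values. Bax turned to 0.036 and 0.16 (olfactory bulb minus hippocampus and minus cortex) after quantile normalization, to 0.06 for olfactory bulb minus cortex without the PAMAM array of the cortex (range with 1 array left out -0.154 to 0.06), and to -0.024 for hippocampus minus cortex without its saline array (range -0.024 to 0.19). Mdm2 turned to 0.048, 0.08 and 0.032 (olfactory bulb minus hippocampus, olfactory bulb minus cortex, hippocampus minus cortex) after quantile normalization. Trp53 turned to 0.017 for olfactory bulb minus cortex with the slide row and to -0.048 for hippocampus minus cortex with normexp. Bbc3 turned to -0.031 for olfactory bulb minus hippocampus without the saline array of the olfactory bulb (range -0.031 to 0.203). The cause was not tested. No paired analysis was possible because the labels carry no replicate numbers and each group has 1 array.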
